A study of Monodelphis domestica with 5 samples.

Results

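The landscape of H3K4me3 was described from the 75115 peaks of the deposited H3K4me3 list that lie on chromosomes 1 to 8 of the opossum, Monodelphis domestica, out of 79412 peaks in that list and 308249 peaks in the 4 deposited lists. Peaks on the X chromosome and on unplaced sequence were left out, and no other choice was made, so every placed autosomal peak is a member. All libraries came from primary ear fibroblasts of a single adult F1 male whose mother was of the LL1 and whose father was of the LL2 laboratory stock. The sample labels give 4 to 6 passages for these cells, whereas the study's methods state a smaller number, and the labels mention pooling of chromatin for sisters only. There was 1 native ChIP-seq library each for H3K4me3, H3K9Ac, H3K9me3 and H3K27me3, and 1 library of input chromatin against which the peaks were called. Native ChIP-seq precipitates chromatin that was cut with micrococcal nuclease without cross-linking. No mark was measured in a replicate, so values are given without a replicate error and without tests. Ranges over the 8 chromosomes are given in place of an error, as chromosomes of 1 library are not replicates.

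H3K4me3, trimethylation of lysine 4 on histone H3, is placed mainly around transcription start sites by the SET1 and MLL methyltransferases and is found at active promoters and at most unmethylated CpG islands. H3K9Ac is an acetylation found at the same active promoters, and both are marks of activation (MOAs). H3K9me3 is typical of heterochromatin and silenced repeats, and H3K27me3 is the mark of Polycomb repression. Both are marks of repression (MORs). In a culture of many cells a larger peak cannot be told apart from a peak present in more of the cells.

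H3K4me3 peaks covered 194 Mb of the 3423 Mb spanned by the 8 chromosomes, or 5.68% of the length, at 21.9 peaks per Mb. Their median width was 1963 bases, and the middle 50% lay between 1421 and 3006 bases. The narrowest peak had 372 bases and the widest 57378. The covered bases were unevenly shared, as the widest 10% of peaks held 27.8% of them and the widest 1% held 5.71%. The list gives a score for each peak, which is the p-value of the MACS peak caller as minus 10 times its log10, so that the lowest score in the list, 50, stands for p of 1e-05. The median score was 236, and the middle 50% of peaks had scores between 106 and 670. A score grows with the depth of the library and the width of the peak. The study states the number of reads of each library, which differs between marks, but the lists hold no read counts and scores were not adjusted for it. Scores reach a ceiling at 3100, and 5766 peaks (7.68%) lay at or above it and cannot be ranked.

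Width and score rose together. Over the 75115 peaks the rank correlation (Spearman's rho) was 0.90, with 0.90 to 0.91 on the single chromosomes, and it was 0.88 over the 69349 peaks below the ceiling. Peaks share 1 library and 1 input, and a wider peak has more reads to test, so this is a description of the caller and of the mark together. Peaks with scores from 50 to 100 had a median width of 1228 bases. The median was 2147 bases for scores from 200 to 400 and 3430 bases for scores from 800 to 1600. At the ceiling the median was 5850 bases, the narrowest such peak had 1910 bases, and these peaks alone made up 20.6% of all bases covered by H3K4me3. Width varied little among weak peaks and more among strong ones. Between scores of 50 and 100, 90% of the peaks were 878 to 1564 bases wide, whereas between 800 and 1600 they were 1978 to 6612 bases wide.

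Peaks of 10 kb or more were rare, at 870 (1.16%), and held 6.34% of the covered bases. Of these broad domains 756 (86.9%) were at the score ceiling, and the lowest score among them was 1070. The 5 widest peaks lay on MonDom5 at chr1:639629070-639686447, chr4:382710582-382765817, chr6:122835005-122879480, chr3:68418683-68462407 and chr6:36296185-36339717. All 5 were at the ceiling and 43533 bases or wider. H3K9Ac was present in each of them but split into 3 to 7 peaks, which covered 28.7 kb of the 57.4 kb of the first domain and 41.9 kb of the 43.7 kb of the fourth. H3K9me3 peaks covered 1.87 kb of the first, 3.15 kb of the third, 2.75 kb of the fourth and 4.43 kb of the fifth. The second domain had none.

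The share of H3K4me3 peaks with H3K9Ac followed the score of the peak. Over all members, 44220 peaks (58.9%, exact 95% binomial interval 58.5% to 59.2%) overlapped H3K9Ac by 1 base or more. Intervals given for shares cover counting error only and treat peaks as independent. Among peaks with scores from 50 to 100 the share was 19.9% (19.3% to 20.5%). It was 39.0% for scores from 100 to 200, 66.1% from 200 to 400, 85.2% from 400 to 800 and 93.7% from 800 to 1600. At the ceiling it was 99.7% (99.6% to 99.9%), so that 15 of the 5766 strongest H3K4me3 peaks had no acetylation peak. The peaks without H3K9Ac were numerous but small. They numbered 30895 and held 25.3% of the bases covered by H3K4me3, with a median score of 109 against 489 for the peaks with H3K9Ac. Within a score class the wider peaks overlapped H3K9Ac more often. Among peaks with scores from 200 to 400, 58.5% (57.4% to 59.7%) of the narrower 7051 and 73.7% (72.7% to 74.8%) of the wider 7052 overlapped H3K9Ac. The class is broad, so its wider peaks may also have higher scores. A wider peak also has more bases in which an overlap can fall, and the part of width itself was not tested.

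**Figure D1:**
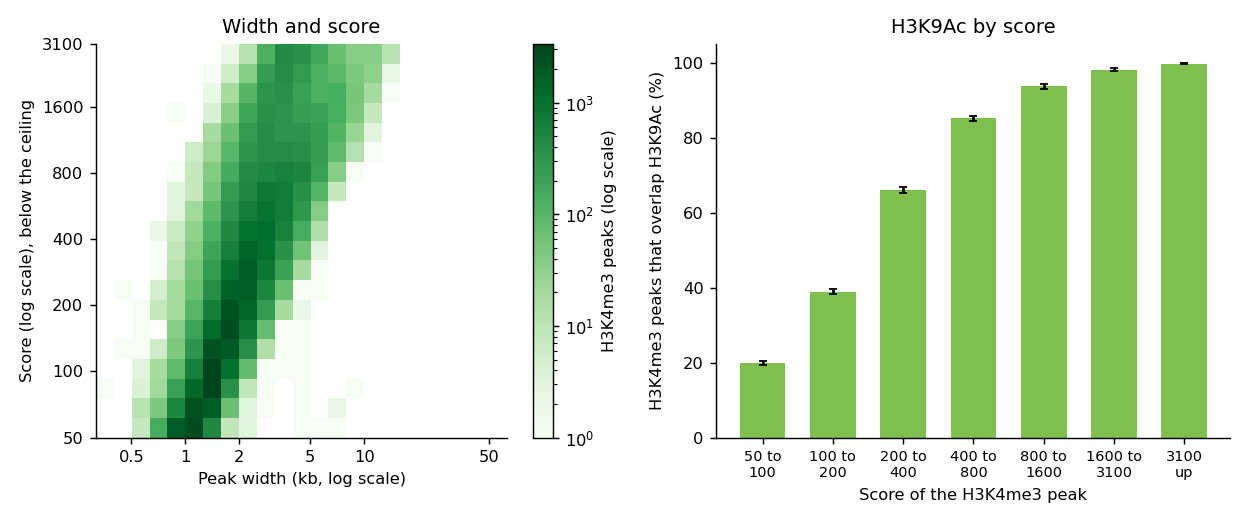
Left, width (kb, log scale) against score (log scale) for the 69349 H3K4me3 peaks below the score ceiling, shaded by the number of peaks per cell of the grid. Right, share of H3K4me3 peaks that overlap an H3K9Ac peak by score class, with exact 95% binomial intervals. Width rises with score, and the share rises from 19.9% in the weakest class to 99.7% at the ceiling.

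Few H3K4me3 peaks overlapped a MOR. Peaks of the MORs were counted from a score of 50, as their lists reach down to 30. Of the H3K4me3 peaks, 2961 (3.94%, interval 3.80% to 4.08%) overlapped an H3K9me3 peak, and 372 (0.495%, interval 0.446% to 0.548%) overlapped an H3K27me3 peak. Unlike H3K9Ac, H3K9me3 did not follow the score. The share ranged from 3.49% to 4.76% over the 7 score classes, with no order among them. It was highest in broad domains, at 18.4% (15.9% to 21.1%) of peaks of 10 kb or more against 5.43% (4.85% to 6.06%) of peaks from 5 to 10 kb. A wide peak has more bases in which an overlap can fall, and by bases the difference was smaller. H3K9me3 lay on 3.49% of the bases of broad domains and on 1.45% of the bases of peaks from 5 to 10 kb. The latter was the lowest of all width classes. Peaks under 1 kb had it on 2.78% of their bases, so by bases the share did not rise steadily with width. Overlap with H3K27me3 was largest at high scores below the ceiling. It was 0.282% for scores from 50 to 100 and 1.38% (1.05% to 1.78%) for scores from 1600 to 3100, and 0.624% (0.438% to 0.863%) at the ceiling. Within the class from 1600 to 3100 the narrower peaks had it more often, at 2.01% (1.46% to 2.70%) against 0.748% (0.428% to 1.21%) of the wider ones. H3K9me3 had the reverse order there, at 2.29% of the narrower and 5.10% of the wider peaks, and their intervals did not meet.

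Spacing was measured as the number of bases between the end of a peak and the start of the next. The 75107 gaps had a median of 12.4 kb and a mean of 42912 bases, and the middle 50% lay between 3478 and 35790 bases. The mean was 3.45 times the median and the SD was 3.92 times the mean, so that short gaps were common and a few were very long. Gaps of at most 1 kb made up 10.9% of the total, gaps of at most 5 kb 31.0% and gaps of at most 20 kb 61.3%. At the other end, 1326 gaps (1.77%) were 300 kb or longer, and together they held 1154 Mb, which is 33.7% of the length of the 8 chromosomes. The 300 gaps of 1 Mb or more alone held 18.5% of the length.

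**Figure D2:**
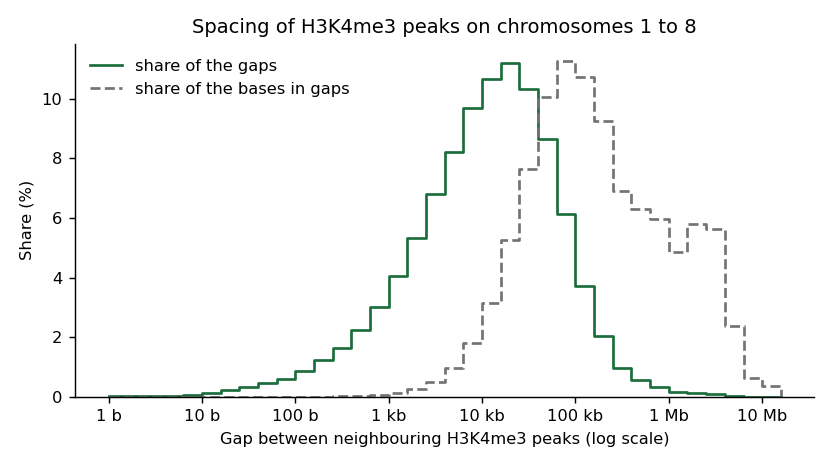
Distribution of the 75107 gaps between neighbouring H3K4me3 peaks on a log scale, as the share of the gaps (solid line) and as the share of the bases that lie in gaps (dashed line). The most frequent gaps lie a little above the median of 12.4 kb, whereas most of the bases lie in longer gaps.

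The 5 longest gaps between H3K4me3 peaks lay on MonDom5 at chr3:125458583-137370517 (11.9 Mb), chr3:117904413-125457397 (7.55 Mb), chr2:83847204-90181158 (6.33 Mb), chr5:284943181-291271242 (6.33 Mb) and chr7:123434471-129700044 (6.27 Mb). Between the first and the second of these stood a single H3K4me3 peak. These gaps were not empty of other marks. Each held 401 to 945 H3K9me3 peaks, covering 2019 kb of the first gap and 928 to 1215 kb of the others. H3K9Ac was found in the gap of chromosome 5 only, with 3 peaks, and H3K27me3 there as well, with 1 peak.

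A peak's strength was almost unrelated to that of its neighbour. Over the 8190 pairs of adjacent peaks less than 1 kb apart, the rank correlation of the scores was 0.11, and over the 15097 pairs 1 to 5 kb apart it was 0.03. The stronger peak of a pair had a median of 2.86 to 3.02 times the score of the weaker in every distance class, from under 1 kb to over 100 kb. The weaker peak of the closest pairs had a median score of 141 and the stronger one 607. In pairs 100 kb or more apart the values were 111 and 488.

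Isolated peaks carried H3K9Ac less often than peaks with a close neighbour. Of the 15151 peaks with a neighbour less than 1 kb away, 65.8% (65.1% to 66.6%) overlapped H3K9Ac. Of the 1494 peaks whose nearest neighbour was 100 kb or more away, 38.0% (35.5% to 40.5%) did, beside the 58.9% of all members. Isolated peaks also had lower scores, with medians of 190 against 287, but the order held at a matched score. For scores from 400 to 800, 72.6% (70.4% to 74.7%) of peaks with the nearest neighbour at 20 kb or more overlapped H3K9Ac, and 88.6% (87.7% to 89.4%) of peaks with a neighbour under 5 kb. At scores from 1600 to 3100 the gap had narrowed to 96.7% (95.4% to 97.8%) and 98.3% (97.7% to 98.8%). The isolated peaks were also narrower at the same score, with a median width of 2406 against 2935 bases in the class from 400 to 800, and the part of width in the difference was not tested. H3K27me3 showed the opposite direction, at 0.290% (0.211% to 0.390%) of peaks with a neighbour under 1 kb and 0.846% (0.695% to 1.02%) of those with the nearest at 20 to 100 kb. For H3K9me3 the 5 distance classes lay between 3.21% and 4.27%.

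Peaks less than or equal to 5 kb apart were joined into clusters. This left 37453 peaks (49.9%) single and 18752 in pairs. A further 18910 peaks (25.2%, interval 24.9% to 25.5%) were in 4997 clusters of 3 or more peaks, which held 28.4% of the covered bases. These clusters had a median span of 13749 bases. In each cluster of 3 or more, the peak with the highest score was set beside the rest. The strongest members had a median width of 3740 bases and a median score of 920, and 90.5% of them overlapped H3K9Ac. The other 13913 members had a median width of 1802 bases and a median score of 172, and 54.0% overlapped H3K9Ac. The strongest member was chosen by its score, and H3K9Ac follows the score, so these contrasts are set by that choice and are not a result. At a matched score of 400 to 800, 88.2% (86.6% to 89.6%) of the other members and 81.3% (80.1% to 82.3%) of single peaks overlapped H3K9Ac. From 50 to 100 the shares were 22.8% (21.5% to 24.1%) and 17.9% (17.1% to 18.7%). From 1600 to 3100 they were 96.8% (94.3% to 98.4%) and 98.0% (97.3% to 98.5%), and their intervals met. Single peaks were narrower at a matched score of 400 to 800, with a median width of 2629 against 2968 bases.

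Clusters of 10 or more peaks numbered 44, with a median span of 70775 bases, and 77.3% of them included a peak at the score ceiling. All 44 held an H3K9Ac peak, and 56.8% held an H3K9me3 overlap at 1 or more of their H3K4me3 peaks. Clusters with more members have more chances of an overlap. Per peak the shares in these 44 were 65.6% for H3K9Ac and 8.35% for H3K9me3, beside 58.9% and 3.94% of all members. None of their 503 peaks overlapped H3K27me3. The share of all members is 0.495%, so few or none would be found in so small a number and this is not a result. The 5 clusters with the most peaks were at chr1:97972305-98059328 (16 peaks), chr3:457496372-457593810 (15 peaks), chr1:108328363-108404869, chr1:272778787-272849531 and chr1:593115711-593191835 (14 peaks each). H3K4me3 covered 68.4 kb of the 97.4 kb of the second cluster and 44.8 kb of the 76.1 kb of the last. H3K9Ac covered 49.1 kb of the second and 21.5 kb of the last.

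The chromosomes differed in density but hardly in the width, score or median gap of their peaks. Chromosome 2 had the highest density, at 23.8 peaks per Mb with 6.32% of its length covered. Chromosomes 5 and 7 had the lowest, at 17.7 and 18.3 peaks per Mb with 4.60% and 4.55% covered. The other 5 lay between 21.6 and 23.4 peaks per Mb. Median width ranged only from 1905 bases (chromosome 7) to 1989 (chromosome 2), median score from 221 to 247 and median gap from 11995 to 13452 bases. The share of peaks overlapping H3K9Ac ran from 55.5% (chromosome 7) to 60.5% (chromosome 6). For H3K9me3 it ran from 3.10% (chromosome 6) to 4.76% (chromosome 3), and for H3K27me3 from 0.266% (chromosome 8) to 0.690% (chromosome 1). Of the 372 H3K4me3 peaks that overlapped H3K27me3, 21 were in 1 bin of chromosome 1, chr1:333000001-334000000, described below.

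Long gaps took up more of chromosomes 5 and 7 than of the others. Gaps of 300 kb or more took up 45.1% of chromosome 5 and 44.8% of chromosome 7, and 29.3% to 34.3% of the other 6. Outside these gaps the density was 32.2 to 33.7 peaks per Mb on all 8 chromosomes, so that the highest was 1.05 times the lowest, against 1.35 times over whole chromosomes. Leaving out gaps in H3K4me3 raises every density, and most where such gaps are many. The likeness between chromosomes is therefore set in part by this step and is not a result. With only gaps of 1 Mb or more left out, the highest density was 1.09 times the lowest. By covered bases, H3K4me3 lay on 8.04% (chromosome 3) to 8.94% (chromosome 2) of the length outside gaps of 300 kb or more, or 1.11 times. Of the 1 Mb bins of chromosomes 5 and 7, 18.8% and 16.2% had no H3K4me3 peak, and 7.09% to 10.4% of the bins of the other 6. Both chromosomes had much H3K9me3, which covered 6.28% of chromosome 5 and 5.70% of chromosome 7, beside 4.50% (chromosome 6) to 5.88% (chromosome 3) of the rest. Near their ends, chromosomes 1, 2, 3, 6, 7 and 8 had less H3K4me3 per bin than in their interior, and chromosomes 4 and 5 had more. In the outermost 10 bins on each side, H3K4me3 covered a mean of 29.6 kb per bin on chromosome 7, against 46.7 kb in its interior, but 65.9 kb on chromosome 4, against 56.3 kb in its interior.

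**Figure D3:**
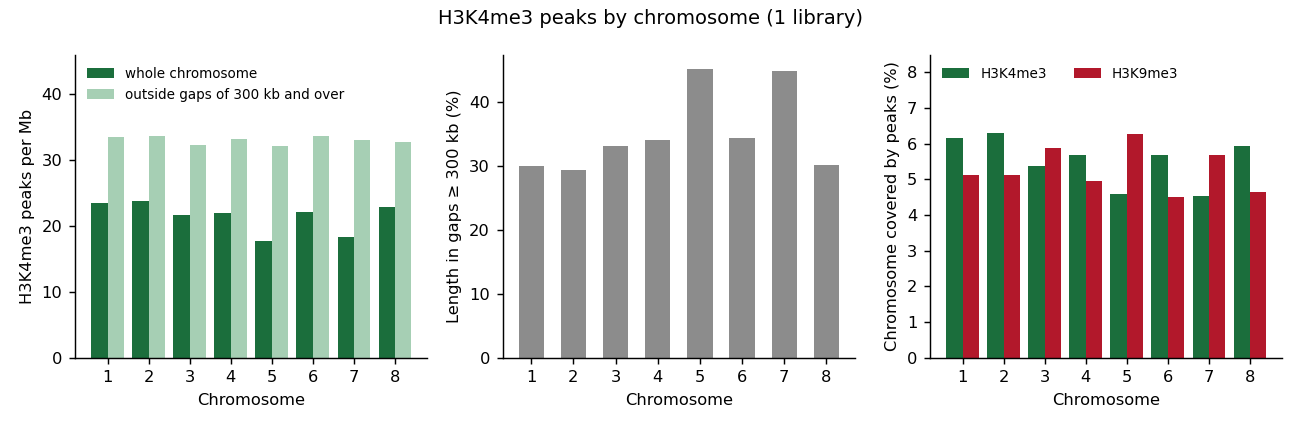
Left, H3K4me3 peaks per Mb of each chromosome (dark bars) and outside gaps of 300 kb and over (light bars). Middle, share of the chromosome in such gaps. Right, share of the chromosome covered by H3K4me3 and H3K9me3 peaks. Chromosomes 5 and 7 have the lowest density and the largest share in long gaps. Outside the gaps all 8 lie between 32.2 and 33.7 peaks per Mb, a likeness set in part by leaving out the gaps.

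The 8 chromosomes were divided into 3419 bins of 1 Mb. H3K4me3 covered a median of 48.9 kb per bin, with the middle 50% between 14.7 and 86.2 kb and a maximum of 304 kb. The number of peaks per bin had a mean of 21.9 and a variance 13.2 times that mean, with up to 90 peaks in a bin when each peak was counted once. No H3K4me3 peak lay in 325 bins (9.51%), of which 17 had no peak of any mark. Neighbouring bins were alike, with a rank correlation of 0.45 over 3411 pairs of adjacent bins. It was 0.23 for bins 2 Mb apart, 0.07 at 5 Mb and 0.03 at 10 Mb. Bins without H3K4me3 occurred in longer runs than rich bins. Of the bins without it, 63.4% had such a neighbour, and the longest run had 11 bins (chr3:126000001-137000000). Of the 341 bins with the most H3K4me3, 32.8% had such a neighbour, and the longest run had 4 bins (chr2:254000001-258000000).

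Bins rich in H3K4me3 differed from poorer ones more in the number of peaks than in their width. The bins were ranked by the bases covered by H3K4me3 and divided into 10 classes of 341 or 342 bins, of which class 1 is the poorest and class 10 holds the rich bins. From class 3 to class 10 the mean number of peaks per bin went from 6.96 to 52.7, whereas median width went from 1729 to 2133 bases and median score from 179 to 273. Number and width of peaks make up the covered bases by which bins were ranked. A rise in them is therefore set by the ranking, and only which of them rose more is of note. The 5 richest bins were chr1:273000001-274000000 (304 kb), chr5:249000001-250000000 (294 kb), chr5:102000001-103000000 (283 kb), chr1:455000001-456000000 (281 kb) and chr6:82000001-83000000 (266 kb), with 73 to 91 H3K4me3 peaks lying in or reaching into each. Chromosome 5, low in H3K4me3 as a whole, thus had 2 of the 5. H3K9Ac covered 185 to 245 kb of these bins and H3K9me3 28.1 to 82.6 kb, and H3K27me3 had 0 to 2 peaks in each. Many bins tie for the least H3K4me3. The first 5 in order of position that held any other mark, all between 12 and 45 Mb of chromosome 1, had 31 to 62 H3K9me3 peaks covering 64.5 to 126 kb and no H3K9Ac or H3K27me3.

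H3K9Ac followed H3K4me3 closely across bins. The rank correlation over the 3419 bins was 0.97, and 0.97 to 0.98 within the single chromosomes. Bins share the library preparation, the input and the gaps of the assembly, and these correlations are given as descriptions. H3K9Ac covered a mean of 107 kb in the 341 rich bins of class 10 (SD over bins 29.4) and 0.0383 kb in the 342 bins of class 1 (SD over bins 0.284), where 7 bins had any. Rich bins also had more acetylation for each base of H3K4me3, at 0.689 bases against 0.496 in class 2, with a rise from each class to the next between them. Class 1 stood apart at 0.814, but it held only 17 H3K4me3 peaks, none of which overlapped H3K9Ac. The share of H3K4me3 peaks that overlapped H3K9Ac was 39.1% (35.6% to 42.6%) in class 2 and 63.5% (62.8% to 64.2%) in class 10. This order also held at a matched score, as 78.3% (76.3% to 80.2%) of peaks with scores from 400 to 800 in the poorer 50% of bins and 88.1% (86.9% to 89.3%) of those in the rich bins overlapped H3K9Ac. At this score the peaks of the poorer bins were also narrower, with a median width of 2581 against 2998 bases, and the part of width was not tested.

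H3K9me3 was highest where H3K4me3 was absent, lower in bins with little H3K4me3 and nearly level from class 4 upward. It covered a mean of 135 kb per bin in class 1 (SD over bins 68.8), 84.7 kb in class 2 and 48.6 kb in class 3. From class 4 to class 10 the mean stayed between 33.0 and 39.5 kb with no order, and it was 38.7 kb in the rich bins (SD over bins 22.4). The rich bins thus had 0.286 times the H3K9me3 of the poorest, with 0.221 to 0.374 on the single chromosomes, all below 1. The rank correlation was -0.32 over all bins, with -0.50 (chromosome 5) to -0.18 (chromosome 8) within chromosomes. Over the 3094 bins with any H3K4me3 it was -0.16, and over the upper 50% of bins it was 0.09. Of the 308 bins without H3K4me3 that held another mark, 236 (76.6%) had 100 kb or more of H3K9me3, against 7.18% of the bins with H3K4me3.

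H3K27me3 rose with H3K4me3 across bins, while 0.495% of H3K4me3 peaks overlapped it. Its mean coverage was 0.437 kb in class 1 and 5.42 kb in the rich bins, a ratio of 12.4, with 6.91 to 17.8 on the single chromosomes. Bins with no H3K27me3 peak made up 82.7% of class 1 and 29.0% of class 10. The rank correlation over all bins was 0.42, with 0.36 to 0.53 within chromosomes, but it was 0.06 over the upper 50% of bins. Counts of H3K27me3 were small, as 4484 peaks on the 8 chromosomes passed the score of 50 and covered 10.5 Mb.

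**Figure D4:**
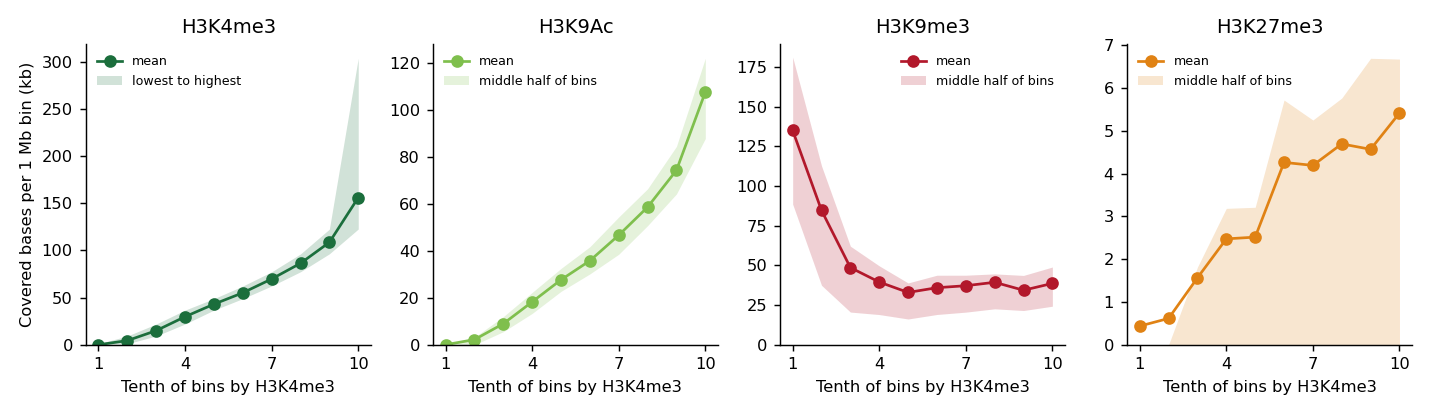
Bases covered per 1 Mb bin (kb) by each mark, for the 3419 bins in 10 classes from the least (1) to the most (10) H3K4me3. Points are means, and shading shows the middle 50% of bins, or the lowest to highest bin for H3K4me3. H3K9Ac and H3K27me3 rise with H3K4me3, and H3K9me3 falls from 135 kb to 48.6 kb over the first 3 classes and then stays between 33.0 and 39.5 kb.

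The finer arrangement was seen from the distance to the nearest H3K4me3 peak. Every base of the 8 chromosomes was assigned by its distance to the edge of the nearest H3K4me3 peak, and the share of bases covered by each other mark was taken. H3K9Ac covered 58.9% of the bases inside H3K4me3 peaks, 9.09% of those up to 0.5 kb outside and 1.97% of those from 0.5 to 1 kb. From 20 to 50 kb it covered 0.241% and beyond 300 kb 0.00381%.

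H3K27me3 was low inside the peaks and far from them, and highest a few kilobases away. It covered 0.148% of the bases inside (0.0511% to 0.220% on the single chromosomes), 0.669% of the bases from 2 to 5 kb (0.526% to 0.792%) and 0.0466% beyond 300 kb (0.0329% to 0.112%). The ranges for 2 to 5 kb did not overlap with those inside or beyond 300 kb. H3K9me3 had a different course with 2 rises. It covered 1.86% of the bases inside (1.26% to 2.52%) and 4.58% from 5 to 10 kb (4.18% to 4.88%), dipped to 3.52% from 50 to 100 kb (2.75% to 4.06%), and reached 12.7% beyond 300 kb (10.3% to 14.1%). The class beyond 300 kb held 502 Mb.

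**Figure D5:**
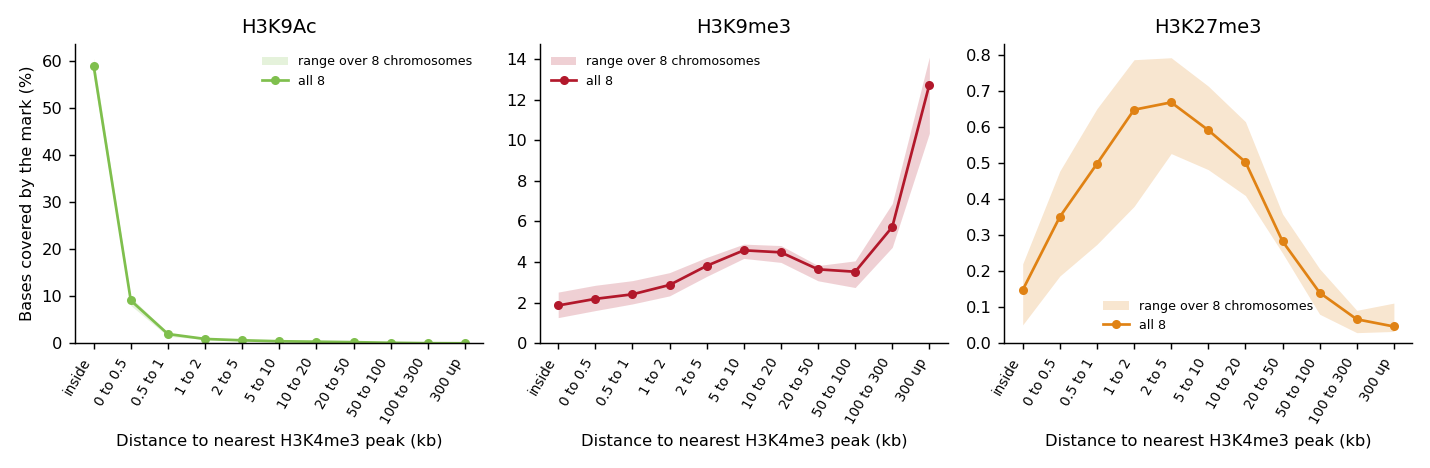
Share of bases covered by H3K9Ac, H3K9me3 and H3K27me3 inside H3K4me3 peaks and at increasing distance (kb) from the nearest one. Lines are values over all 8 chromosomes and shading is the range over the single chromosomes. H3K9Ac is confined largely to the peaks, H3K27me3 is highest from 2 to 5 kb and H3K9me3 is highest beyond 300 kb.

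In 3 of the 341 rich bins H3K9me3 covered 100 kb or more, where the median rich bin had 34.0 kb. These were chosen after their values were seen. The bin chr1:333000001-334000000 had 181 kb of H3K4me3 in 57 peaks, 230 kb of H3K9me3 and 145 kb of H3K27me3 in 45 peaks, with a widest H3K9me3 peak of 81084 bases. Of its 57 H3K4me3 peaks, 24 overlapped H3K9me3 and 21 overlapped H3K27me3 (36.8%, beside the 0.495% of all members), and 23 overlapped H3K9Ac (40.4%, beside 58.9%). The 3'-UTR region that the study lists for PCDHGC5, a member of the clustered protocadherins, which are cell adhesion proteins, lies in this bin. The bin chr5:184000001-185000000 had 174 kb of H3K4me3, 148 kb of H3K9me3 and 50.5 kb of H3K27me3. The bin chr4:17000001-18000000 had 224 kb, 146 kb and 49.9 kb of them, and 0 of its 49 H3K4me3 peaks overlapped H3K27me3, where the share of all members is 0.495%. Without these 3 bins the mean H3K27me3 of the rich bins was 4.74 kb.

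Gene positions on MonDom5 were at hand only for the 3'-UTR regions of the study's candidate genes, which the study selected from these libraries for H3K4me3, H3K9Ac and H3K9me3 at the promoter. Their marking is therefore no independent evidence of the landscape. Of the 176 such regions on chromosomes 1 to 8, without a known imprinted gene that the study had added, 59 (33.5%) lay in the rich bins and 0 in class 1, the poorest. Of all H3K4me3 peaks 23.9% lay in the rich bins and 17 in class 1. Of 42 genes with such a region in a rich bin, a symbol and an H3K4me3 peak within 10 kb, the 10 named first by score and then by position were all on chromosome 1, as 32 of the 42 peaks tie at the score ceiling. A peak within 10 kb of a 3'-UTR region need not be at the gene's promoter, and its overlaps say nothing of the marks there.

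The widest H3K4me3 peak of the list, 57378 bases, lay 7677 bases from the region of RTN4, a reticulon of the endoplasmic reticulum. Of this peak 49.98% was covered by H3K9Ac and 3.26% by H3K9me3. The peak near DSTN, an actin-depolymerizing protein, was 27339 bases wide with 41.4% of it in H3K9Ac peaks and 6.68% in H3K9me3 peaks. At MEIS1, a homeobox transcription factor, the peak over the 3'-UTR region, which is far from the promoter, was 15356 bases wide with 95.8% in H3K9Ac and none in H3K9me3. The promoter of MEIS1 was not examined here. The peak at BCL2L1, an inhibitor of apoptosis, was 13144 bases wide and lay wholly in H3K9Ac. In the same bin the peak at ID1, an inhibitor of basic helix-loop-helix factors, was 8269 bases wide with 22.4% in H3K9me3. At CEBPB, a basic leucine zipper transcription factor, it was 8478 bases wide with 92.5% in H3K9Ac and none in H3K9me3.

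HNRNPF, an RNA-binding protein, had a peak of 13304 bases with 55.1% in H3K9Ac and 22.8% in H3K9me3, in a bin with 199 kb of H3K4me3. CYP1B1, a cytochrome P450 enzyme, had 14678 bases with 85.2% in H3K9Ac and 27.4% in H3K9me3, the largest share in H3K9me3 among the 10. PANK3, a pantothenate kinase of coenzyme A synthesis, had 11874 bases with 80.3% in H3K9Ac and none in H3K9me3. C15orf23 had 5827 bases with 66.6% in H3K9Ac and 8.68% in H3K9me3. All 10 peaks were at the score ceiling because the genes were picked by score. Their widths ran from 5827 to 57378 bases. None of the 10 overlapped H3K27me3, where the share of all peaks at the ceiling is 0.624%, so this is not a result.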

How the data were processed

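Native ChIP-seq of fibroblasts from 1 male gave 1 library for each of 4 antibodies and 1 input library. The files the authors deposited are MACS output, made per antibody with the input library as background from Bowtie alignments on MonDom5. The submitters' processing notes name CASAVA 1.7, Bowtie 1.1.2 and MACS 1.0.1. The deposited lists hold, for every peak, its position and a score, the log10 of the p-value from MACS multiplied by minus 10. The lists give no read counts. The study states the reads of each library, and these were not used here. Groups were taken from the sample labels.

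Peaks on chromosomes 1 to 8 were analyzed in Python 3.11.15 (scipy 1.17.1 and numpy 2.4.6), and starts are given counting from 1. All H3K4me3 and H3K9Ac peaks were kept, and H3K9me3 and H3K27me3 peaks from a score of 50 (p of at most 1e-05). Peaks sharing 1 base overlapped. Chromosome length was the largest peak end in any list, and partial bins at chromosome ends were left out. Assembly gaps and mappability were not accounted for. Overlap, coverage and cluster code was tested on simulated peaks and checked against bedtools 2.31.1. Named regions were the 5 richest and 5 poorest bins, widest peaks, longest gaps and largest clusters, and named genes up to 10 candidates in rich bins or these regions, ordered by score. The members, lists and measures were chosen with earlier results of these data known. Alternatives covered score minimum, merging, cluster gap, bin size, bin ranking and extent of overlap. With 1 library per mark no test was made.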

Additional observations from a re-analysis of the deposited data

How the results depend on the processing

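Alternatives gave 61 values for 15 results, and 45 of these values stayed close to the main one, 16 moved and 0 reversed. A share moved when it left its 95% interval, a rank correlation when it changed by more than 0.1, and other values when they changed by more than 1.5 times. Of the alternatives 12 were chosen after seeing the data, namely other lengths for long gaps, bins that start 500 kb later and leaving out bins without H3K4me3. The share of H3K4me3 peaks in clusters of 3 or more was 10.05%, 43.8% and 65.2% when gaps of 2000, 10000 and 20000 bases joined peaks, and 19.1% with a score of at least 100. The ratio of H3K9Ac in rich to poor bins, main value 2810, was 215 with bins of 2 Mb, 36.8 with the top and bottom 25% of bins, 848 with bins ranked within each chromosome and 1696 with bins ranked by number of peaks, as its divisor is near 0. The ratio of H3K27me3 was 6.90 with the top and bottom 25%. The rank correlation of H3K4me3 with H3K9me3 was -0.43 with every deposited H3K9me3 peak and -0.16 without bins that have no H3K4me3 peak. With at least 50% of the H3K4me3 peak shared, 55.1% overlapped H3K9Ac, 1.56% H3K9me3 and 0.125% H3K27me3. With every deposited peak of the MORs, 5.47% overlapped H3K9me3 and 0.857% H3K27me3. No paired analysis was possible because each mark had a single library. Without replicates, the precision of numbers of peaks and of scores is unknown. Libraries differ in depth, and no alternative adjusted for it, as the lists hold no reads.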

Other observations

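H3K4me3 peaks outside chromosomes 1 to 8 had other values. On unplaced sequence there were 3538 peaks, with a median width of 2684 bases but a median score of 100.5, and the rank correlation of width and score was 0.18, against 0.90 on chromosomes 1 to 8. Of these peaks 63.5% (61.9% to 65.1%) overlapped H3K9me3, 35.2% (33.6% to 36.8%) overlapped H3K27me3 and 20.8% (19.5% to 22.2%) overlapped H3K9Ac. On X there were 759 peaks, with a median width of 1749 bases, a median gap of 24515 bases and 1.98% at the score ceiling, and 49.4% (45.8% to 53.0%) of them overlapped H3K9Ac. Overlap with H3K9me3 was 0.395% (0.0816% to 1.15%) and with H3K27me3 0% (0% to 0.485%), beside 3.94% and 0.495% on chromosomes 1 to 8. Cells of a male hold a single X chromosome, and the values for X were not adjusted for this. Unplaced sequence joins pieces whose order is unknown, so spacing there was not described.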
